A study of Mus musculus with 16 samples.

Results

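The 4 arrays described here carried RNA of Erbb2-transfected NIH3T3 cells treated with 5 µM azacytidine, out of 16 arrays in the study, and were chosen by their titles, replicates 1 to 4. Each array is a 2-colour cDNA array on which RNA of the treated cells was hybridised together with RNA of untreated Erbb2-transfected NIH3T3 cells. The treated RNA was labelled with Cy5 on arrays 1 and 2 and with Cy3 on arrays 3 and 4. NIH3T3 is an established line of mouse embryonic fibroblasts, and Erbb2 is a receptor tyrosine kinase of the epidermal growth factor receptor family that acts as an oncogene when overexpressed. The same transfected line was measured at 10 µM on 8 further arrays, against its own untreated RNA, and untransfected NIH3T3 cells at 10 µM on 4 arrays, against untreated untransfected cells. Both Erbb2 groups therefore share the transfection, which their untreated references carry too. The promoter of the Erbb2 construct, whether the line is 1 clone, the length of treatment and whether the 4 arrays came from separate cultures are not given in the labels, so p-values here cover only the spread among arrays, which may be technical.

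Azacytidine resembles cytidine and, once incorporated into DNA, captures DNA methyltransferases on it, so that dividing cells lose methylation at CG pairs. Methylated CG pairs around a gene's start are a known mark of silenced genes, among them imprinted, germline and tissue-restricted genes, and in tumour cells also tumour suppressors. As a ribonucleoside it is also known to enter RNA.

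The arrays gave 18476, 17935, 17253 and 18507 ratios from 20355 probes. The interquartile range of the log2 ratios was 0.706, 0.899, 0.957 and 0.754, where the 16 arrays of the study ran from 0.706 to 1.36. After filtering, 12420 features were tested, of which 7832 carried a gene symbol. Ratios give no level of either channel, so neither the fibroblast markers nor the presence of the transgene could be checked on a level scale, and no probe was listed under Erbb2. Signal over background is unknown, and precision is limited by having 4 arrays.

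Below, each value is a log2 ratio, treated over untreated, given for arrays 1, 2, 3 and 4 in that order. A fitted mean rests on n = 4 arrays unless another n is given, and ± is its standard error from limma. Unless another fit is named, the spread behind ± and the p-values was estimated from all arrays of the study, then moderated by eBayes. These include the 4 untransfected arrays, whose dye labels are doubtful. So ± is not the spread of the 4 printed values and can be smaller than they alone would give. The labels do not state the numerator of the ratio. The deposited ratios were assumed to be Cy5 over Cy3 and the sign of arrays 3 and 4 was turned, so every direction rests on that assumption and is not settled. Were the values Cy3 over Cy5, every sign would turn. Were they already treated over untreated, the means below would hold the dye bias, and the drug response would be the mean of the values as deposited. On that reading limma called 0 of 12420 features at an adjusted p under 0.05. The smallest adjusted p was 0.274, and 519 features (4.18%) had an unadjusted p under 0.05.

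The arrays themselves did not settle the reading. As deposited, Pearson's r over all probes, which are not independent, was 0.0454 between arrays 1 and 2 and 0.0578 between arrays 3 and 4, which share a dye arrangement. Between arrays of exchanged dyes it ran from -0.0167 to 0.0121. Of the 10963 features with a value on all 4 arrays, 1926 (17.6%) had one sign on every array after turning, 824 above 0 (7.52%) and 1102 below (10.1%), and 1684 (15.4%) had one sign as deposited.

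At 5 µM, Cd5, a lymphocyte surface receptor, rose 2.55-fold, and the apoptosome scaffold Apaf1, the homeobox gene Hoxb1, the saposin precursor Psap and the ferroxidase ceruloplasmin (Cp) rose between 1.75-fold and 1.94-fold. The rise of Cp rests on a single kept probe and was lost with a left-out probe averaged in (0.25, adjusted p = 0.9999, limma). The glycolytic enzyme gene Aldoa, the zinc finger gene Zcchc4 and the ephrin receptor gene Ephb1 fell. Of these genes, only Cd5 also passed with any 1 of the 4 arrays left out and with the 12 Erbb2 arrays alone. The others passed in none of those fits. In all, 26 features, or 0.209% of those tested, passed limma at an adjusted p under 0.05 (Benjamini-Hochberg over all features), and 786 (6.33%) had an unadjusted p under 0.05. Of these, 22 were higher (0.177%) and 4 were lower (0.0322%). Symbols were listed for 13 of them, 10 higher and 3 lower, or 0.166% of the named features. Each of the 26 had a value and one sign on all 4 arrays, and the smallest of them in size was Haus4 at 0.69. Over all features the median was -0.02, with 52.3% below 0 and 47.7% above, shares against which the counts of list members below are set, and the median standard error was 0.36.

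**Figure D1:**
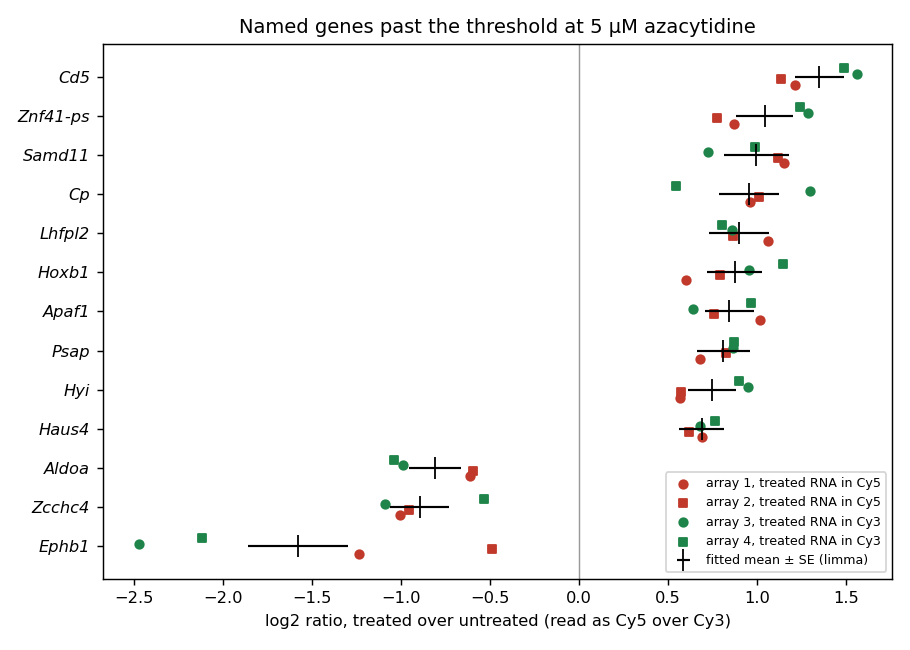
Log2 ratio of treated over untreated Erbb2 cells (x axis) for the 13 named genes past the threshold at 5 µM (y axis). Red points are arrays with the treated RNA in Cy5, green points arrays with it in Cy3 and sign turned, and the black mark is the fitted mean with its standard error; Ephb1 has the widest spread and Haus4 the narrowest.

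Cd5 (Entrez Gene 12507) encodes a scavenger-receptor-like glycoprotein that dampens antigen receptor signalling in T cells and some B cells. Its ratios were 1.21, 1.13, 1.56 and 1.49. All 4 arrays lay above 1, and arrays 3 and 4 lay above arrays 1 and 2. The fitted value was 1.35 ± 0.14 (adjusted p = 0.000403, limma), the smallest p of any named gene. Cd5 also passed without any 1 of the 4 arrays, and in 17 of 18 alternative analyses with the signs turned. The exception was the fit to the 4 arrays alone, in which no feature passed. Cd5 has 1 probe, and among the 15 measured members of the lymphocyte and T cell list it was the 1 that passed, with a list median of 0.02. Cd8a, a co-receptor of cytotoxic T cells, had -0.34, -0.86, -2.78 and -0.08, and Cd22, a B cell lectin, had 0.74, 0.02, 0.14 and 0.27. Neither passed.

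Since azacytidine acts at CG pairs, windows around gene starts are shown. They belong to the 4 highest named genes past the threshold with an entry in the RefSeq table. Each window runs from 250 bases before to 50 bases after the start, 5′ to 3′ on the gene's strand, with each CG pair in capitals (assembly GRCm38.p6). The Cd5 window is chr19:10738925-10739224 on the minus strand and the Samd11 window chr4:156255293-156255592 on the minus strand. For Cp, which has 2 windows, the one with more CG pairs is shown, chr3:19956999-19957298 on the plus strand, and for Lhfpl2 chr13:94057546-94057845 on the plus strand.
Cd5: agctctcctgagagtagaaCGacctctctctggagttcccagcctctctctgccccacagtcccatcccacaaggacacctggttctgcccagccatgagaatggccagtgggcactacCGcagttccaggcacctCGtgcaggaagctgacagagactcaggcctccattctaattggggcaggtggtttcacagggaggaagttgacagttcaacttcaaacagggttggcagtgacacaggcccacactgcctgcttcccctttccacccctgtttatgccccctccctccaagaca
Samd11: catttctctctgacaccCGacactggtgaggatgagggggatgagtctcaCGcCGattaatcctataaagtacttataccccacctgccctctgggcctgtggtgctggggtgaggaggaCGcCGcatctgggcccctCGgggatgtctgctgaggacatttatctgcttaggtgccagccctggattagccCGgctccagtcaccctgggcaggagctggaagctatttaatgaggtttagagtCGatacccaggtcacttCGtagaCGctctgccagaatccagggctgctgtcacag
Cp: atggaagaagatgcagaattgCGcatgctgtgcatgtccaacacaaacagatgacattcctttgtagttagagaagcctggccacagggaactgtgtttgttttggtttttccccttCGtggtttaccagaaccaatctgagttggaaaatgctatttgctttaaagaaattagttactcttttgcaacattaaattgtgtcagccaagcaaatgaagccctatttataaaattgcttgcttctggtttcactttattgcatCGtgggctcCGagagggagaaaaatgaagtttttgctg
Lhfpl2: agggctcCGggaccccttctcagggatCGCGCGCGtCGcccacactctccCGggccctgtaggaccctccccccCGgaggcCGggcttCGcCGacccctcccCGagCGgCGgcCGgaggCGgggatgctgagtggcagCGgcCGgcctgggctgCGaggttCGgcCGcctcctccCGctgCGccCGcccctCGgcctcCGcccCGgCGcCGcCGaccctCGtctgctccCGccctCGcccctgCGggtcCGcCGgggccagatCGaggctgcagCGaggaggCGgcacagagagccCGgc
The windows differ in CG content. That of Cd5 holds 3 pairs, all before the start, and Samd11's holds 10. The Cp window shown holds 4 and its other window 2, while Lhfpl2's holds 40. The CG count over that expected from the C and G content was 0.126 for Cd5, 0.416 for Samd11, 0.338 for Cp and 0.858 for Lhfpl2.

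The other genes past the threshold also differed in CG content, from 0 to 46 pairs in a window. Apaf1 had 46 CG pairs in its window, Haus4 25, Ephb1 14 and Hoxb1 10, and Psap had 23 in one window and 3 in the other. Aldoa had 23, 24 and 0 in its 3 windows and Zcchc4 4 and 17. Znf41-ps and Hyi are named only. Over the 8 of 10 higher genes with an entry the median was 11.5 pairs, and over the 3 lower genes it was 14 pairs, taking a gene's mean where it has several windows. Among all 7832 named features, 6321 had an entry, with a median of 20 pairs and quartiles of 11 and 27. The motif CG, which reads the same on both strands, occurs in 94.6% of all 32851 windows of this length in the table. These are counts of letters, with no test, and methylation was not measured here.

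**Figure D2:**
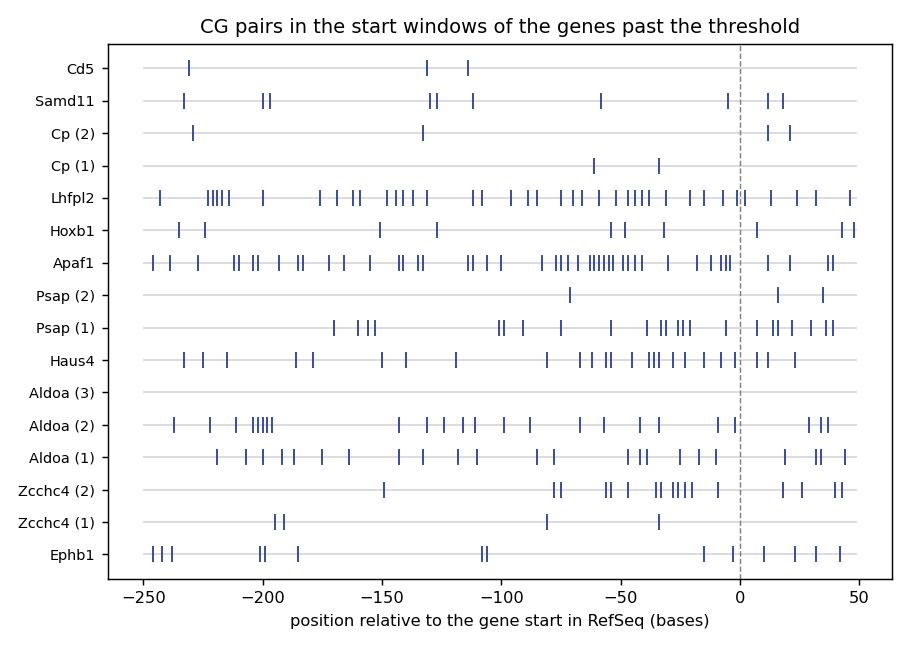
Position of every CG pair (ticks) relative to the gene start, in bases, in the 300-base windows of the genes past the threshold that have an entry, ordered by log2 ratio; a number in brackets counts the windows of a gene with several, by position on the chromosome. Lhfpl2 (40 pairs) and Apaf1 (46) are densely filled, and Cd5 has 3.

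Among regulators of cell death, Apaf1 (11783), which binds cytochrome c and activates caspase 9, had 1.01, 0.76, 0.64 and 0.97, a mean of 0.84 ± 0.14 (adjusted p = 0.0353, limma). The dye arrangements overlapped, at 0.89 in Cy5 and 0.80 in Cy3. Apaf1 was the 1 of 16 measured genes of apoptosis and p53 targets that passed. The list had a median of 0.06, with 11 members above 0 (31.2% below). Zmat3, a zinc finger target of p53, had -0.16, 0.36, 0.97 and 1.05, and Sesn1, a stress-induced p53 target, had -1.48, -2.33 and -1.92 on its 3 arrays. Neither passed. Cdkn1a, the cell cycle inhibitor p21, had -0.38, -0.48, -0.54 and 1.69 and a mean of 0.07 ± 0.65, so its arrays did not share a sign.

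Among transcription-related genes, Hoxb1 (15407), a hindbrain patterning factor, had 0.60, 0.79, 0.96 and 1.15 and a mean of 0.87 ± 0.15 (adjusted p = 0.0412, limma). Arrays 3 and 4 were again the higher ones. Of 8 measured homeobox factors Hoxb1 was the 1 that passed, and 6 lay above 0. Hoxd9 had -0.44, -1.26, 1.87 and 2.20, opposite signs in the opposite dye arrangements, and did not pass. Samd11 (231004), a photoreceptor-linked nuclear protein with a SAM domain, had 1.15, 1.12, 0.72 and 0.99 (0.99 ± 0.18, adjusted p = 0.0439). Its value on array 1 was shared by 17 probes, where a neighbouring step of 0.001 held 0.75 probes on average.

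Znf41-ps (70005), a zinc finger pseudogene, had 0.87, 0.78, 1.29 and 1.24 and a mean of 1.04 ± 0.16 (adjusted p = 0.0271). A pseudogene can share hybridisation with relatives on a cDNA probe, which these data cannot separate. Zcchc4 (78796), a methyltransferase that modifies ribosomal RNA, had -1.01, -0.96, -1.09 and -0.53, below 0 on every array (-0.90 ± 0.17, adjusted p = 0.0451).

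In the lysosome, Psap (19156), whose product is cut into the saposins that help degrade sphingolipids, had 0.68, 0.83, 0.87 and 0.87, a narrow range with a mean of 0.81 ± 0.15 (adjusted p = 0.0439). It was the 1 of 28 measured lysosomal genes that passed. In the list, 22 members lay above 0, the median was 0.13, and its median on single arrays was 0.15, 0.11, 0.22 and 0.20. The protease gene Ctsz had 0.71, 0.96, 0.67 and 0.50 (adjusted p = 0.479) and the cholesterol carrier Npc2 had 0.36, 0.30, 0.34 and 0.35 (adjusted p = 0.627). Both were above 0 on every array and did not pass.

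In metabolism, Cp (12870), the copper-carrying ferroxidase of plasma, had 0.96, 1.01, 1.30 and 0.54 (0.95 ± 0.17, adjusted p = 0.0419) from 1 probe. A second Cp probe had too few values in the other groups to be kept, and gave -0.55, 0.56, -2.20 and 0.37. With that probe averaged in, Cp had 0.25 and an adjusted p of 0.9999, so the rise rests on the first probe. Hyi (68180), a hydroxypyruvate isomerase, had 0.57, 0.57, 0.95 and 0.90, higher on arrays 3 and 4 (0.75 ± 0.13, adjusted p = 0.0419). Among iron and copper genes Cp was the 1 of 19 that passed, and the ferritin light chain Ftl1 had -0.62, -0.66, -0.60 and -0.52 with an adjusted p of 0.166.

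Aldoa (11674), the muscle-type aldolase that splits fructose bisphosphate in glycolysis, had -0.62, -0.60, -0.99 and -1.04 averaged over 3 probes, and fell by 0.81 ± 0.14 on the log2 scale (adjusted p = 0.0419, limma). Each of its 3 probes was below 0 on each of the 4 arrays, the probes ranging from -1.37 to -0.26. An Aldoa probe on array 1 had a value shared by 27 probes, where a neighbouring step held 3.15 on average. Of 17 measured glycolysis genes, 15 lay below 0 and Aldoa was the 1 that passed. The list median was -0.44, and on single arrays it was -0.32, -0.32, -0.39 and -0.23. Pyruvate kinase Pkm had -0.50, -0.40, -0.72 and -1.07 (adjusted p = 0.263) and Gapdh -0.22, -0.50, -0.13 and -0.43 (adjusted p = 0.762). Neither passed, though every array was below 0 for both.

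At the membrane and the spindle, Lhfpl2 (218454), a tetraspan membrane protein, had 1.06, 0.87, 0.86 and 0.80 (0.90 ± 0.17, adjusted p = 0.0451). Haus4 (219072), a subunit of the augmin complex that nucleates microtubules inside the spindle, had 0.69, 0.62, 0.68 and 0.76 (0.69 ± 0.13, adjusted p = 0.0451). The Haus4 arrays lay closest together of the 13 genes. It was the 1 of 11 augmin and spindle genes that passed, and another augmin subunit, Haus1, had -0.45, -0.64, -0.89 and -0.05.

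Ephb1 (270190), a receptor tyrosine kinase for membrane-bound ephrin ligands, had -1.24, -0.49, -2.48 and -2.12. All arrays were below 0, but the mean was -0.87 with the treated RNA in Cy5 and -2.30 with it in Cy3. It fell by 1.58 ± 0.28 (adjusted p = 0.0439, limma). Its value on array 1 was shared by 29 probes, where a neighbouring step held 0.40 on average. Of 9 measured ephrin receptors and ligands Ephb1 was the 1 that passed. The ligand gene Efna5 had 0.23, 1.14, 0.73 and 0.43 and did not pass.

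The plot of all features by dye arrangement sets the mean of arrays 1 and 2 against that of arrays 3 and 4. The 26 features lie in the quadrants where both means have one sign, which their choice on the mean of these same arrays fixed. The other 13 features past the threshold have no gene symbol in the annotation used. The 3 with the smallest p were probe9740, with 3.94, 3.66, 3.55 and 3.27 (3.61 ± 0.17, adjusted p = 3.22e-08), probe7407, with 3.59, 3.46, 3.46 and 3.26, and probe15448, with 1.27, 1.16, 1.17 and 1.12. The features probe9740 and probe7407 had ratios over 3 on each array, above every named gene that passed. All 3 probes were also above 0 in the other groups, so their rise was not particular to 5 µM. In Erbb2 cells at 10 µM probe9740 had 3.29, probe7407 2.97 and probe15448 1.15. In untransfected cells, where the dye labels are doubtful, they had 4.34, 3.42 and 0.72. Like Cd5, these 3 probes passed without any 1 of the 4 arrays, which the other 12 named genes did not.

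**Figure D3:**
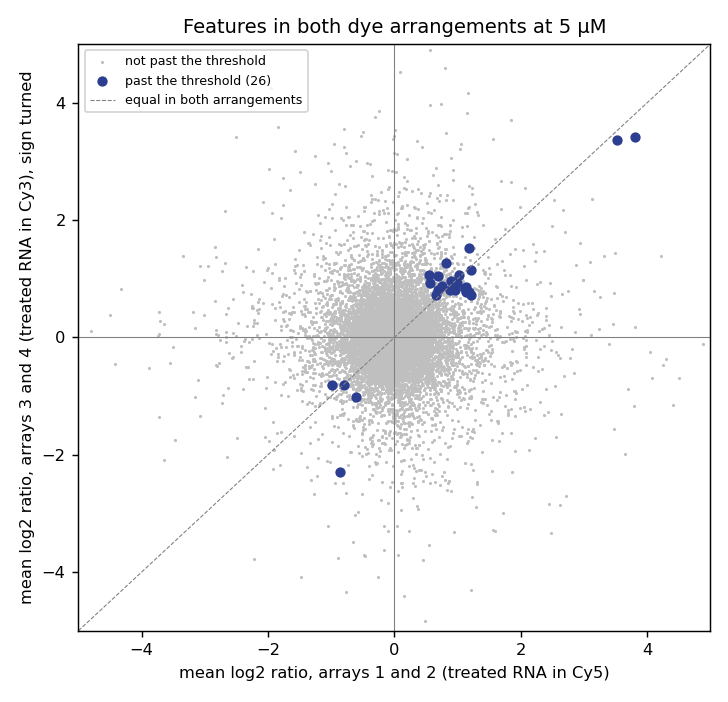
Mean log2 ratio of each feature on arrays 1 and 2 (x axis, treated RNA in Cy5) against its mean on arrays 3 and 4 (y axis, treated RNA in Cy3, sign turned). Blue points are the 26 features past the threshold, grey points the rest, and the dashed line marks equal values; 9 features lie outside the plotted range of -5 to 5.

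Leaving out any 1 of the 4 arrays brought the count to 5 or 6 features, and using the 12 Erbb2 arrays alone to 5. Of the named genes past the threshold, only Cd5 passed with the 12 Erbb2 arrays alone, without the untransfected arrays and their doubtful dye labels. Fitting the 4 arrays alone brought the count to 0, with 875 at an unadjusted p under 0.05. Made equal in spread, the arrays gave 45 features, 33 higher and 12 lower, so the share of lower calls depended on the scaling. The cause of these shifts was not tested.

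Just outside the threshold, Polq, a polymerase of DNA break repair, had -1.49, -1.18, -2.20 and -1.40 (adjusted p = 0.0525). Its 2 probes differed, at -3.90 to -1.85 for one and -0.52 to 0.04 for the other. Akr1c18, a steroid dehydrogenase, had -0.82, -1.02, -0.93 and -0.73 (adjusted p = 0.0663). The intermediate filament gene Vim, a fibroblast marker, had -0.63, -0.52, -0.82 and -0.45 (adjusted p = 0.151), both of its probes below 0 on every array. Further genes with one sign on all 4 arrays that did not pass were Tmco5b (0.77), the calcium sensor Ncald (0.69) and Zfp385c (0.77). The same held for the splicing factor Cwc22 (0.68), the deubiquitinase Mindy4 (-0.65) and Wdr41, part of a lysosomal C9orf72 complex. With probes filtered on the 5 µM arrays alone, Cwc22 had 0.08 and an adjusted p of 0.9999 (limma). Wdr41 had 1.10, 1.25, 2.06 and 3.10, a mean of 1.88 ± 0.46. Its values on arrays 2 and 4 were shared by 54 and 15 probes, where neighbouring steps held 1.1 and 0.1 on average.

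Genes that azacytidine is known to act on or through were described next. Dnmt1, the maintenance methyltransferase, had 0.52, 0.32, 0.61 and 0.55, above 0 on every array, with a mean of 0.50 ± 0.14 (adjusted p = 0.307, limma). The de novo enzyme Dnmt3a had 0.23 ± 0.22 over 4 probes, and Uhrf1, which guides Dnmt1 to newly copied DNA, had 0.43, 1.25, -0.95 and -0.12. The Uhrf1 value on array 2 was shared by 54 probes and that of a Dnmt3a probe on array 3 by 67. Neighbouring steps there held 1.1 and 3.05 on average. Of 11 measured genes of the methylation machinery 0 passed in limma and 1 (9.09%), Dnmt1, had an unadjusted p under 0.05, where 6.33% of all features had one. The list had a median of 0.06.

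Imprinted genes, which are expressed from 1 parental copy under control of methylation, had a median of 0.26 over 13 members, with 9 above 0 and 0 past the threshold. Grb10, a growth factor receptor adaptor, had -0.10, -0.29, -2.61 and -0.99. Sgce, a sarcoglycan, had 0.89, 0.12, 1.69 and 0.31, Dlk1, a Notch-like ligand, had 0.209, 1.203, 0.516 and 1.040, and Igf2, an embryonic growth factor, had -0.20, 0.59, 1.05 and 0.15. The arrays of each of these genes lay far apart, and without array 3 the list median was -0.02. A Grb10 probe on array 2 had a value shared by 44 probes, and a Sgce probe on array 3 one shared by 41. Neighbouring steps there held 1.15 and 0.4 on average. Germline and testis genes had a median of -0.03 over 12 members, and the sperm transition protein gene Tnp1 had -0.66, 1.33, 0.81 and 2.19. Neither list had a member past the threshold.

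For the interferon response, 9 of 11 measured genes lay above 0 with a median of 0.23, and 0 had an unadjusted p under 0.05. Irf7, a regulator of interferon genes, had 0.25, 3.48, 0.55 and -0.40, and Oas2, an antiviral enzyme, had 0.18, 1.35, 1.08 and 0.22. Their array 2 values were shared by 10 probes for Irf7 and 14 for Oas2, where neighbouring steps held 0 and 1.4 on average. Among 10 genes of class I antigen processing the median was -0.05. B2m, the class I light chain, had 0.18, 1.12, 1.19 and 1.18, so 3 arrays agreed and array 1 stood apart. Its mean was 0.92 ± 0.24 (adjusted p = 0.225).

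**Figure D4:**
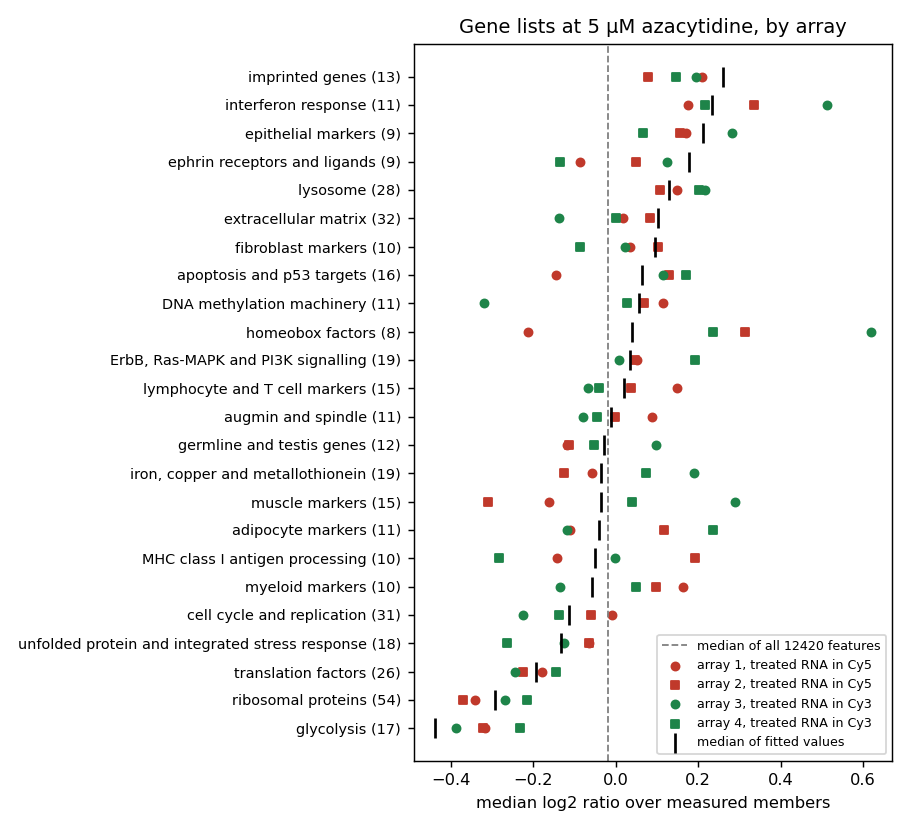
Median log2 ratio (x axis) over the measured members of each of 24 gene lists (y axis, number of members in brackets). Points are single arrays, red with the treated RNA in Cy5 and green with it in Cy3, black marks are medians of the fitted values, and the dashed line is the median of all features, -0.02; the arrays lie together below 0 for glycolysis, ribosomal proteins and translation factors.

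Genes of the ribosome had ratios below 0 for 46 of 54 measured members, with a median of -0.29 and medians on single arrays of -0.34, -0.37, -0.27 and -0.22. None passed, and in limma 18 members (33.3%) were below 0 and 1 above 0 at an unadjusted p under 0.05, where 3.24% of all features were below and 3.09% above at that p. The stalk protein gene Rplp0 had -0.62, -0.53, -0.62 and -0.46 (adjusted p = 0.153), and Rps14 of the small subunit had -0.41, -0.65, -0.52 and -0.56 (adjusted p = 0.197). With probes filtered on the 5 µM arrays alone, Rps14 had -0.52 and an adjusted p of 0.841 (limma). Translation factors had a median of -0.19, with 17 of 26 below 0, 4 of them at an unadjusted p under 0.05. Eef1b2, the exchange factor of elongation factor 1, had -0.72, -0.74, -0.14 and -0.28. Of the unfolded protein and integrated stress response 13 of 18 genes lay below 0, with a median of -0.13, and its transcription factor Atf4 had -0.54, -0.35, -0.30 and -0.26 (adjusted p = 0.529).

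Cell cycle and replication genes had a median of -0.11 over 31 members, 20 of them (64.5%) below 0 beside 52.3% of all features, and the helicase subunit Mcm7 had -0.35, -0.58, -0.23 and -0.56. Genes of ErbB, Ras-MAPK and PI3K signalling had a median of 0.03 over 19 members, with 0 past the threshold and 0 at an unadjusted p under 0.05. Egfr, the partner receptor of Erbb2, had 0.36 ± 0.23 over 5 probes, and the kinase Map2k1 had -0.31, -0.48, -0.44 and -0.36. Over 32 extracellular matrix genes the median was 0.10. There Agrn, a basement membrane proteoglycan, had 0.71, 0.75, 0.54 and 0.45 (adjusted p = 0.431) and Sparc, a collagen-binding matrix protein, had 0.17, 0.65, 0.33 and 0.31 (adjusted p = 0.674). A Sparc probe on array 1 had a value shared by 233 probes, where a neighbouring step held 9.6 on average.

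The marker lists of other cell types gave no call besides Cd5. Fibroblast markers had a median of 0.09 over 10 members, epithelial markers 0.21 over 9, myeloid markers -0.06 over 10, adipocyte markers -0.04 over 11 and muscle markers -0.04 over 15. The keratin gene Krt8 had 0.42, 1.94, 0.40 and -0.09, and the adhesion gene Epcam had 0.17, 0.16, 0.54 and 0.30. Over the 24 lists, the median had one sign on all 4 arrays for 10, 5 above 0 and 5 below, and 8 lists held a member past the threshold, each exactly 1.

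The closest group is the same line at 10 µM (n = 8), and the difference 10 µM minus 5 µM was tested in the same fit. In limma it passed for 0 of 12420 features. The smallest adjusted p was 0.682, and 538 features (4.33%) had an unadjusted p under 0.05. This does not show that the doses act alike. The untreated Erbb2 cells served as the reference for both doses, and the estimate of the spread is shared, so their values stand side by side without a measure of likeness.

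Cd5 had 1.35 at 5 µM and 1.29 at 10 µM, where its 8 arrays ran from 1.02 to 1.65. Apaf1 had 0.84 and 1.15, Hoxb1 0.87 and 1.18, Hyi 0.75 and 1.11, and Psap 0.81 and 0.97. Lhfpl2 had 0.90 and 0.99 and Cp 0.95 and 0.83. Aldoa had -0.81 and -0.69, and Zcchc4 -0.90 and -0.73. For these 9 genes the difference had an adjusted p of 0.998.

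The other 4 genes stood near 0 at the higher dose. Znf41-ps had 1.04 at 5 µM and -0.01 at 10 µM, a difference of -1.05 ± 0.20. Samd11 had 0.99 and 0.03 (difference -0.97 ± 0.22), Haus4 0.69 and -0.03 (-0.71 ± 0.16), and Ephb1 -1.58 and 0.25 over 7 arrays (1.83 ± 0.35). The adjusted p of each of these differences was 0.682, so none passed. These genes were chosen by their 5 µM values, which also enter the difference, so its size may be overstated. At 10 µM the 8 arrays ran from -0.29 to 0.38 for Znf41-ps, from -0.22 to 0.17 for Haus4 and from -0.79 to 0.86 for Samd11, and the 7 arrays of Ephb1 from -0.46 to 0.90. Among the 5 genes with the smallest p for the difference were also Atat1 (0.94 at 5 µM and -0.52 at 10 µM), App (-0.08 and 0.87) and Mrpl30 (-1.67 over 3 arrays and 0.48), and none passed.

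**Figure D5:**
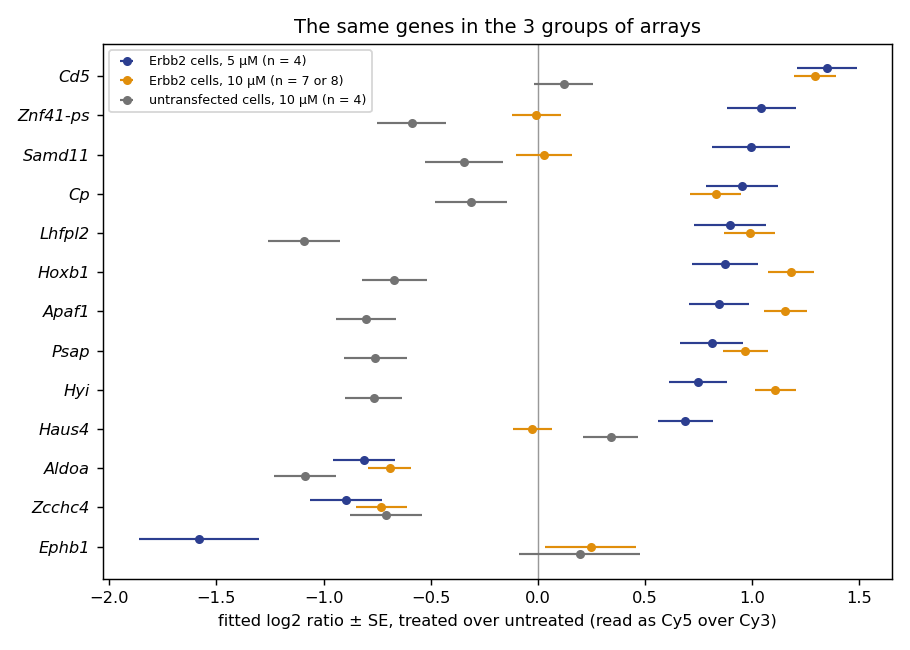
Fitted log2 ratio with its standard error (x axis) for the 13 named genes past the threshold at 5 µM (y axis) in Erbb2 cells at 5 µM (blue), Erbb2 cells at 10 µM (orange) and untransfected cells at 10 µM (grey). Znf41-ps, Samd11, Haus4 and Ephb1 lie near 0 at 10 µM, and most genes that were higher at 5 µM lie below 0 in the untransfected cells.

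Untransfected cells were treated at 10 µM only, and the dye labels of their arrays are doubtful, since the labels name one dye for both channels of an array. Dose and line therefore cannot be told apart in a comparison with the 5 µM arrays, and the values are given without a test. Cd5 had 0.12 there, its 4 arrays running from -0.18 to 0.31, below the lowest array at 5 µM. The other genes that rose at 5 µM had values from -1.09 (Lhfpl2) to 0.34 (Haus4), among them Apaf1 at -0.80, Hyi at -0.77 and Psap at -0.76. Were the dyes the other way round on those arrays, all these signs would turn. Aldoa had -1.09 and Zcchc4 -0.71.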

How the data were processed

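RNA of treated and untreated cells of one line was compared on 2-colour cDNA arrays. The deposited values are log2 ratios of the channels, with array medians at 5 µM from -0.024 to 0.011. The sources used here do not give image analysis or normalization. The base was read from a single extreme value per array (16.1 to 16.6 at 5 µM), which lay above all ratios. These 437 cells (values over 10) were read as placeholders and left out. The label protocol speaks of organs and pooled control animals and was not used for grouping.

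The sign of arrays whose treated channel was Cy3 was turned. Probes were kept with values on 3 or more arrays per group of 4 and 6 or more of the 8, in both dye arrangements (14813 of 20355), and averaged by symbol (1879 genes from several probes). All 16 arrays entered one limma 3.58.1 fit (R 4.3.3) with 3 group means and a shared dye term, followed by eBayes. Tests were two-sided and adjusted by Benjamini-Hochberg over 12420 features. The procedure was run on simulated data with independent normal noise. That does not test the reading of the sign, dye bias or values shared by many probes. Symbols came from the platform annotation, 13994 of 14030 matched by Entrez Gene ID with 0 changed. Named genes were those past the threshold, the next 12 by p with one sign, up to 3 of each list by p, 13 genes whatever their value (Erbb2, H19 and Dnmt3b were not among the features tested) and 5 by the dose difference. Members and lists were chosen with earlier results of these data known. Alternatives covered sign, arrays, dye term, filter, centring, scale, weights, placeholders, probes, robust eBayes, a 1.2-fold test, replicate block and leaving out arrays.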

Additional observations from a re-analysis of the deposited data

Results flagged for a closer look

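On array 4 Cdkn1a stood at 1.69, while its other 3 arrays ran from -0.54 to -0.38. For B2m, array 1 stood at 0.18 and the other 3 arrays ran from 1.12 to 1.19. These were 2 of 51 genes and lists with 4 arrays in which the most distant array was checked, and chance places about 5% of such groups so. The Cdkn1a value was shared by 7 probes, where a neighbouring step held 0.35 on average. Both outlying values carry no explanation here.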

How the results depend on the processing

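In place of 26 features, 22 higher and 4 lower, the count of all features past the threshold, which need not be among those 26, was 0 as deposited, 0 with the 4 arrays alone (875 at an unadjusted p under 0.05), 5 with the 12 Erbb2 arrays, 9 with a dye term in each group, 5 of 14631 with a filter on the 5 µM arrays alone and 16 with single probes. There were 73 (44 higher and 29 lower) of 7148 features with values on all 16 arrays, 45 (33 and 12) after scale normalization, 96 (59 and 37) with array weights and 4 in a test against 1.2-fold. Without 1 array the count was 5 to 6. Cd5 passed in all of these except as deposited and on the 4 arrays alone. The other 12 named genes passed in 5 to 10 of 18 alternatives and in 0 of 4 with an array left out. They kept their direction in every one of those 18 that gave a value (17 for Ephb1, which lacked a value on 1 of the 16 arrays). All 18 turned the signs alike and reused the same arrays, so the kept direction adds no support. As deposited, the sign turned for Cd5 (-0.17), Znf41-ps (-0.22), Hoxb1 (-0.18), Aldoa (0.20), Hyi (-0.18), Psap (-0.0585), Ephb1 (0.72) and Haus4 (-0.0335). The causes were not tested. Deviations of same-numbered Erbb2 arrays at 5 and 10 µM had correlations from -0.0281 to 0.0383. Arrays sharing a dye arrangement at 5 µM correlated at only 0.0454 and 0.0578, so this cannot settle whether replicate numbers pair the samples. With replicate number as a block 26 features passed, 22 higher and 4 lower. The dose difference gave 0 features in each alternative run, with smallest adjusted p from 0.0501 to 0.9999 in limma. Without signal intensities, the precision of low-signal spots is unknown.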

Other observations

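Of the probes, 431 had the placeholder on at least 1 of the 4 arrays and 6 on 2 arrays. These were picked after their values were seen. Among them was the probe of Tex45, with placeholders on arrays 1 and 2 and deposited ratios of -3.001 and -0.53 on arrays 3 and 4. The probe of Ppp6r1, a subunit of a protein phosphatase, had them on arrays 3 and 4 and -0.37 on array 1, and that of Ggh, a folate hydrolase, on arrays 1 and 4 and -0.75 on array 2. The other 3 have no symbol listed. No ratio was used for these cells.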
